A study of Mus musculus with 16 samples.

Results

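The genes described here regulate the G1 phase of the cell cycle. They are the transcription factor gene Myc, the D-type cyclins Ccnd1, Ccnd2 and Ccnd3, the E-type cyclins Ccne1 and Ccne2, the kinases Cdk4 and Cdk6, and the inhibitors Cdkn1b (p27) and Cdkn1c (p57). They were chosen by gene name, and all 10 were found among the 52525 genes shared by the 3 count tables of 16 mouse RNA-seq libraries. All 10 also passed the filter on low counts in each table. CUL4B is the cullin scaffold of a ubiquitin ligase, and the study asked what its loss does to intestinal renewal, with KO compared with WT in each experiment. The mice were on the C57BL/6 background, males by their fn/Y genotype, and mostly adults.

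Crypts, the epithelial pockets that hold the intestinal stem cells, were taken from the small intestine and gave 4 WT and 4 KO IEC libraries. KO IEC mice carry pVillin-Cre, which is active in the whole intestinal epithelium, with the floxed allele Cul4b fn/Y, and their WT controls are given as Cul4b fn/Y with no Cre named. Organoids, the epithelial cultures grown from crypts in Matrigel, came from WT and KO IEC mice (2 libraries each, called IEC organoids below). A further 2 WT and 2 KO libraries came from organoids in which Cul4b fn/Y is deleted by the inducible CAG-CreERT2, a Cre expressed in all cells that 4-OHT activates (called CAG organoids). Whether the WT cultures of that experiment carried CreERT2 or received 4-OHT is not given in the sources used here, so induction and deletion cannot be told apart in it. The culture medium of the sequenced organoids is not given either. The study's methods call the libraries of a group biological replicates, and its supplement counts the crypt libraries as mice. For the organoids it is not stated whether the libraries came from separate animals, so p-values there measure only the spread between these libraries, which may be technical. Total counts were 9311734 to 13479974 per crypt library, 15006730 to 16881395 per IEC organoid library and 7348191 to 10462275 per CAG organoid library, so that 3 counts were worth 0.178 to 0.408 CPM, the read count scaled to library size.

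In G1, D-type cyclins bind CDK4 and CDK6, and cyclin E binds CDK2. These kinases phosphorylate the RB family, which releases E2F transcription factors and lets DNA replication start. MYC, a target of Wnt signaling in the crypt, raises transcription of growth genes and of several cyclins and CDKs, while p27 and p57 bind cyclin-CDK complexes and restrain them. Crypt progenitors divide quickly, and exit from the cycle accompanies their differentiation into absorptive and secretory cells.

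The deleted gene was checked in every library first. Cul4b (ENSMUSG00000031095) was at 31.7, 33.2, 38.3 and 32.3 CPM in the WT crypts and at 1.69, 0.993, 0.848 and 2.21 CPM in the KO crypts. The IEC organoids had it at 83.2 and 73.2 CPM in WT and 1.69 and 1.76 CPM in KO. The CAG organoids held 72.9 and 70.1 CPM in WT and 3.34 and 5.19 CPM in KO. Every KO library was below every WT library of its experiment, as its label says.

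Some libraries stood apart from their group. KO replicate 1 of the IEC organoids correlated better across genes with the WT libraries (mean r = 0.975) than with KO replicate 2 (r = 0.949), and KO replicate 2 was also slightly closer to the WT libraries (0.952) than to KO replicate 1. The root mean square difference between those 2 KO libraries was 0.830 on the log2 scale, against 0.516 between the 2 WT libraries. In the crypts, KO replicate 1 also correlated better with the WT libraries (mean r = 0.972) than with the other KO libraries (0.966). KO replicates 3 and 4 of the crypts were the least like their own group (mean r = 0.962 for both). The mitochondrial ribosomal RNAs mt-Rnr1 and mt-Rnr2 together took 18.6 to 27.6 CPM in crypt WT replicate 1 and KO replicates 1, 2 and 3, but 833 and 1107 CPM in WT and KO replicate 4, and 2740 and 2737 CPM in WT replicates 2 and 3. In the IEC organoids they took 1379 and 2167 CPM in WT and 1189 and 2674 CPM in KO replicates 1 and 2. In the CAG organoids the libraries of a genotype lay close together, with a root mean square difference of 0.329 between the WT and 0.338 between the KO libraries.

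Divided by gene length, Cdk4 was the most abundant of the 10 mRNAs in all 6 groups, at 67.7 ± 8.62 CPM per kilobase in WT crypts (SD, n = 4), 93.2 ± 5.17 in WT IEC organoids (SD, n = 2) and 91.5 ± 1.32 in WT CAG organoids (SD, n = 2). Levels are set against each other only within an experiment, since the tables were normalized separately. Below Cdk4 in the WT crypts came Ccnd2 (33.8 ± 5.72) and Ccnd1 (32.7 ± 5.18), whose ranges overlapped, and then Myc (24.7 ± 3.65) and Cdkn1b (20.1 ± 1.17), whose ranges overlapped too. The other 5 were lower, from Ccne1 at 5.81 ± 0.83 over Cdk6 at 4.77 ± 0.41, Ccne2 at 3.38 ± 0.53 and Ccnd3 at 3.27 ± 0.39 down to Cdkn1c at 1.43 ± 0.25 CPM per kilobase (SD, n = 4). Among these only Ccne2 and Ccnd3 overlapped as neighbours. The WT organoids kept Cdk4 first and Cdkn1c last, but Myc stood second in both, at 48.5 ± 8.13 CPM per kilobase in the IEC and 72.4 ± 3.19 in the CAG organoids (SD, n = 2). Its range overlapped that of Ccnd2 (40.5 ± 10.6), the next in the order, in the IEC organoids. In the KO libraries of the CAG organoids Ccnd1 (29.6 ± 1.91) stood above Cdkn1b (17.2 ± 0.19), whereas in WT Cdkn1b (29.9 ± 2.24) stood above Ccnd1 (18.7 ± 0.50), in both cases without overlap. In the KO crypts every neighbouring pair in the order overlapped except Cdkn1b (19.3 ± 1.15) and Ccne1 (4.67 ± 1.44 CPM per kilobase, SD, n = 4).

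**Figure D1:**
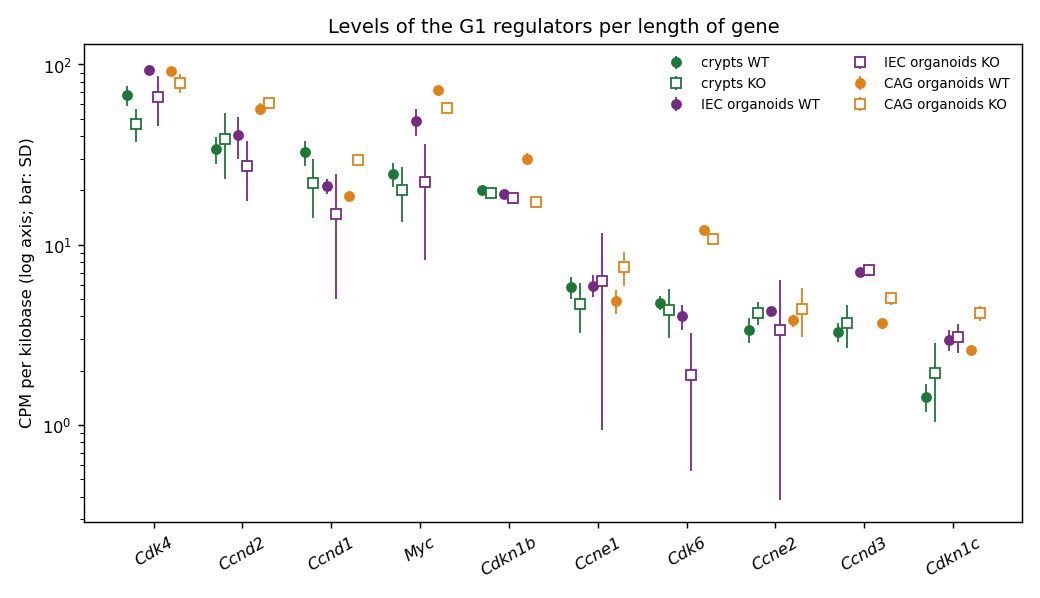
Mean level of each G1 regulator in CPM per kilobase of gene (log axis, bars SD) for WT (filled circles) and KO (open squares) of the crypts (n = 4 each), IEC organoids and CAG organoids (n = 2 each), ordered by the level in WT crypts. Cdk4 is highest in every group, and Cdkn1b and Ccnd1 exchange places between WT and KO in the CAG organoids.

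The 10 genes were first tested in each experiment by itself, so that the counts that passed are not a comparison between experiments, which was tested separately. In the crypts 0 of 10 passed the test (edgeR quasi-likelihood, adjusted p under 0.05), where 6.96% of the 13427 genes tested did (4.3% higher and 2.66% lower in KO, and 1.79% with a fold of at least 2). Ccnd1 and Cdk4 were under 0.05 before adjustment, as were 31.9% of all genes, and DESeq2 called 1 of the 10, Cdk4. With the class of mitochondrial ribosomal RNA (low, middle or high, as above) as a factor, 2 of all genes passed in the crypts in place of 934. The high class was WT replicates 2 and 3, with no KO library, and the low class was WT replicate 1 and KO replicates 1, 2 and 3. Class and genotype are thus partly confounded in that fit. Leaving out 1 library at a time gave 2 to 2468 genes, so that calls given for the crypts below depend on single libraries. In the IEC organoids 0 of 10 passed with edgeR, where 0.00717% of 13938 genes did, a share that is Cul4b alone. None of the 10 was under 0.05 there before adjustment, where 4.66% of all genes were, and DESeq2 called none. In the CAG organoids 6 of 10 passed, where 31.5% of 13598 genes did: Ccnd1, Ccnd3, Ccne1 and Cdkn1c rose (18.1% of all genes did) and Myc and Cdkn1b fell (13.4%). None of these changes reached a 2-fold size. Of all genes tested 8.6% passed with a fold of at least 2, and 43% were under 0.05 before adjustment. Of the 10, DESeq2 called 3 in the CAG organoids and the fit of all 16 libraries called 1. The KO and WT ranges did not overlap for 0 of 10 genes in the crypts, where this held for 17.5% of all genes (8.7% higher and 8.79% lower in KO). They did not overlap for 3 of 10 in the IEC organoids, all lower in KO, where 38.9% did not (19.4% higher and 19.4% lower). The CAG organoids had 8 of 10 without overlap, 4 higher and 4 lower, where 69.7% of all genes had none (35.5% higher and 34.2% lower).

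The biological coefficient of variation, the spread between libraries of a group that edgeR estimates, was 0.231 in the crypts, 0.280 in the IEC organoids and 0.0815 in the CAG organoids. The smallest p of an exact two-sided permutation test is 0.0286 for 4 against 4 libraries and 0.333 for 2 against 2, so that the organoid groups cannot reach 0.05 by permutation. Where an organoid library is left out below, its group keeps 1 library, which the fit assumes to vary like the other group.

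**Figure D2:**
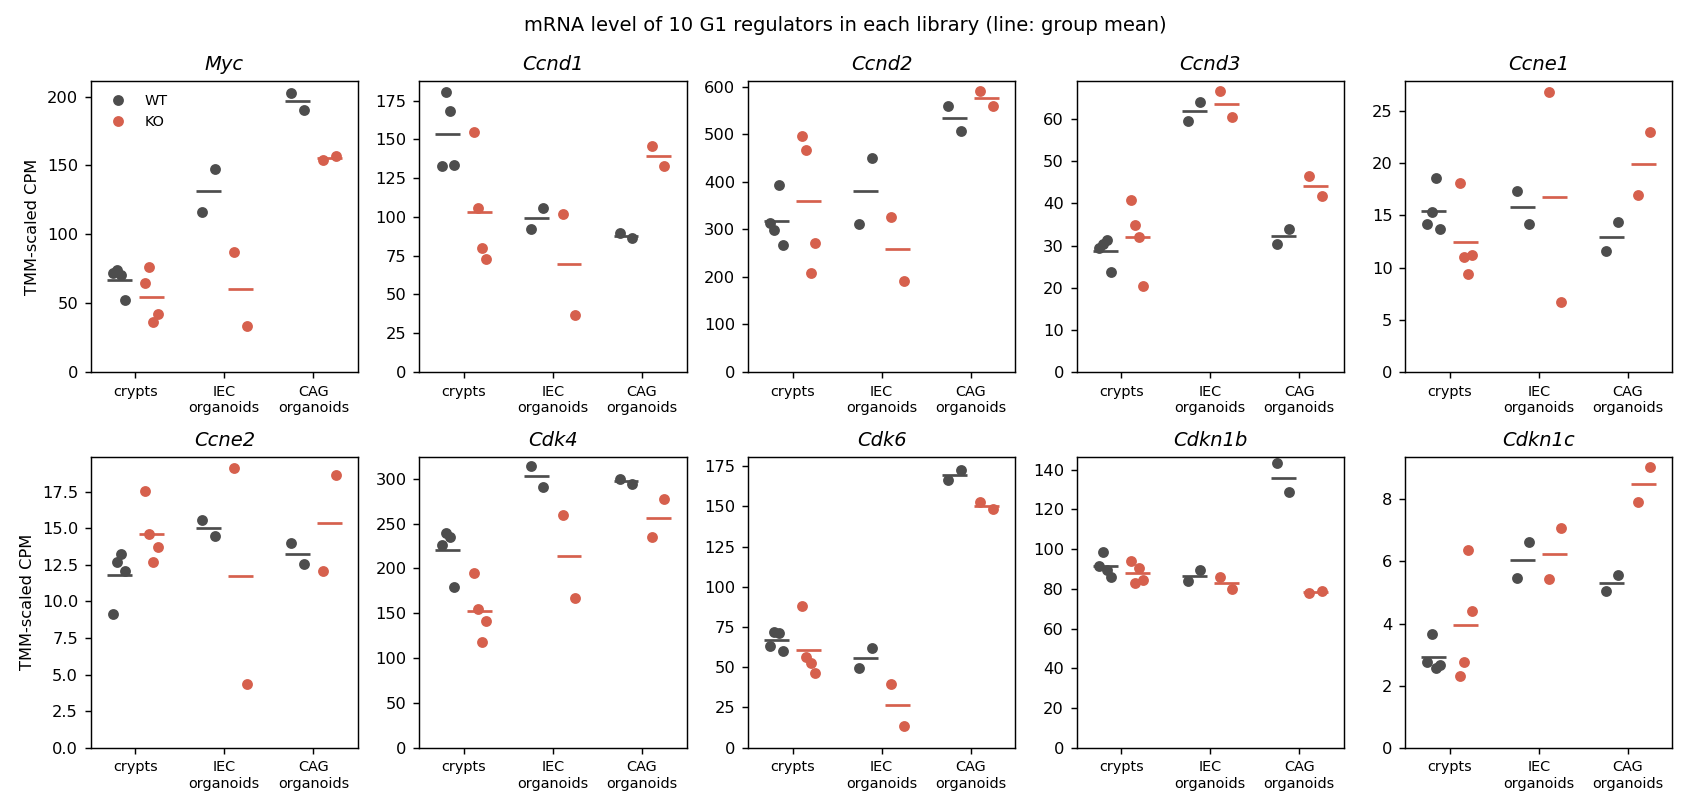
TMM-scaled CPM of the 10 genes in each library, 1 panel per gene, with WT in grey and KO in red and the group mean as a line, for the crypts (n = 4 each), IEC organoids and CAG organoids (n = 2 each). The 2 KO points of the IEC organoids lie far apart for Myc, Ccnd1, Ccne1, Ccne2 and Cdk6, while Cdkn1b is separated between WT and KO only in the CAG organoids.

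Myc (ENSMUSG00000022346) lies on chromosome 15 of GRCm38 from 61985391 to 61990374, plus strand, and encodes the transcription factor that drives growth genes with its partner MAX. It fell by 0.34 on the log2 scale in the CAG organoids and was also lower by point estimate in the other experiments. Its level in the CAG organoids was 203 and 191 CPM in WT and 154 and 157 CPM in KO. The groups did not overlap, and the change was -0.34 (SE 0.08, adjusted p = 0.0105, edgeR). Without WT replicate 1 it was -0.30, which no longer passed (adjusted p = 0.134, edgeR), nor did it pass in the fit of all 16 libraries (-0.35, adjusted p = 0.651, edgeR). Myc in the IEC organoids was at 116 and 147 CPM in WT and 87.5 and 33.4 CPM in KO. Both KO libraries were below both WT libraries, with a log2 fold change of -1.12 that did not pass (95% interval -2.34 to 0.10, adjusted p = 0.856, edgeR). In the WT crypts the levels were 71.7, 73.8, 70.3 and 52.3 CPM, and in the KO crypts 64.7, 76.0, 36.4 and 42.2 CPM. KO replicate 2 was above all WT libraries, and the log2 fold change of -0.29 did not pass (95% interval -0.80 to 0.22, adjusted p = 0.401, edgeR). It was -0.49 without KO replicate 2, -0.12 without KO replicate 3 and -0.17 without KO replicate 4, none of which passed.

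Of the D-type cyclins, which bind CDK4 and CDK6 and couple the cycle to growth signals, Ccnd1 and Ccnd3 rose in the CAG organoids, and Ccnd2, the most abundant of them there, did not pass in any experiment. Ccnd1 (ENSMUSG00000070348, chromosome 7, 144929931 to 144939925, minus strand) was at 89.6 and 86.3 CPM in WT and 146 and 133 CPM in KO CAG organoids. The groups did not overlap, and the rise of 0.66 on the log2 scale (SE 0.08, adjusted p = 0.000344, edgeR) amounted to 58.3%. The call was lost in the fit of all 16 libraries (0.66, adjusted p = 0.360, edgeR) and kept in the other 10 alternatives. Ccnd1 in the IEC organoids was at 92.5 and 106 CPM in WT and 102 and 36.9 CPM in KO. KO replicate 1 lay within the WT range and KO replicate 2 far below it, and the log2 fold change of -0.51 had a 95% interval of -1.75 to 0.73 (adjusted p = 0.856, edgeR).

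In the crypts Ccnd1 was at 133, 180, 168 and 133 CPM in WT and 155, 106, 80.0 and 73.1 CPM in KO. KO replicate 1 was within the WT range and the other 3 KO libraries were below it. The log2 fold change was -0.57 (SE 0.23), with p = 0.0327 before and 0.124 after adjustment over all genes (edgeR), and the exact two-sided permutation test gave p = 0.0857. Without KO replicate 1 it was -0.83 and passed (adjusted p = 0.0233, edgeR). Among the libraries low in mitochondrial ribosomal RNA (1 WT and 3 KO) the difference was -0.28 log2 CPM, and between the 2 libraries of the middle class it was -0.86. These differences have no replicated WT group and no test.

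Ccnd2 (ENSMUSG00000000184, chromosome 6, 127125162 to 127152193, minus strand) was at 313, 298, 394 and 267 CPM in WT crypts and 496, 467, 208 and 272 CPM in KO crypts. The spread was wider in KO, with replicates 1 and 2 above and replicate 3 below all WT libraries. The IEC organoids held 310.4 and 451 CPM in WT and 326 and 192 CPM in KO, and the CAG organoids 560.4 and 507 CPM in WT and 592 and 560.0 CPM in KO. The groups overlapped in each experiment, and the log2 fold changes were 0.18 (95% interval -0.42 to 0.79), -0.56 (-1.42 to 0.30) and 0.11 (-0.10 to 0.32), none of which passed. In the crypts it was -0.010 without KO replicate 1, 0.034 without KO replicate 2 and 0.38 without KO replicate 3.

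Ccnd3 (ENSMUSG00000034165, chromosome 17, 47505051 to 47599691, plus strand) was at 30.5 and 33.8 CPM in WT and 46.6 and 41.7 CPM in KO CAG organoids. There was no overlap, and the rise of 0.45 on the log2 scale passed (SE 0.12, adjusted p = 0.0137, edgeR), but not without WT replicate 1 (0.37, adjusted p = 0.123, edgeR) or by DESeq2 (adjusted p = 0.0609), nor in the fit of all 16 libraries (0.45, adjusted p = 0.302, edgeR). Ccnd3 in the IEC organoids was at 59.5 and 64.1 CPM in WT and 66.7 and 60.4 CPM in KO, a log2 fold change of 0.04 with a 95% interval of -0.37 to 0.45. The WT crypts held 29.4, 30.4, 31.3 and 23.7 CPM and the KO crypts 40.9, 35.0, 32.0 and 20.5 CPM. Of the KO crypts 3 were above all WT libraries and 1 was below them, and the log2 fold change was 0.16 (95% interval -0.27 to 0.60), or 0.026 without KO replicate 1 and 0.34 without KO replicate 4.

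The E-type cyclins, the partners of CDK2 at the entry into S phase, were among the less abundant genes, and Ccne1 rose in the CAG organoids. Ccne1 (ENSMUSG00000002068, chromosome 7, 38097984 to 38107534, minus strand) was at 11.6 and 14.4 CPM in WT and 17.0 and 23.0 CPM in KO CAG organoids. The groups did not overlap, with a log2 fold change of 0.64 (SE 0.19, adjusted p = 0.0295, edgeR). That call was lost without WT replicate 1 (0.47, adjusted p = 0.154, edgeR), without KO replicate 2 (0.39, adjusted p = 0.145, edgeR), by DESeq2 (adjusted p = 0.0821) and in the fit of all 16 libraries (adjusted p = 0.496, edgeR). Ccne1 in the IEC organoids was at 17.3 and 14.2 CPM in WT and 26.9 and 6.69 CPM in KO, the 2 KO libraries lying on either side of the WT pair. The log2 fold change of 0.09 had a 95% interval of -1.59 to 1.78. In the crypts WT libraries held 14.1, 15.4, 18.6 and 13.7 CPM and KO libraries 18.1, 10.99, 9.44 and 11.2 CPM. All KO libraries but replicate 1 were below the WT range, and the log2 fold change was -0.32 (95% interval -0.79 to 0.15, adjusted p = 0.318, edgeR). Without KO replicate 1 it was -0.55 and passed (adjusted p = 0.0450, edgeR), and without KO replicate 3 it was -0.20.

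Ccne2 (ENSMUSG00000028212, chromosome 4, 11191351 to 11204779, plus strand) did not pass in any experiment. It was at 9.13, 12.7, 13.3 and 12.1 CPM in WT crypts and 17.5, 14.6, 12.7 and 13.7 CPM in KO crypts, with a log2 fold change of 0.31 (95% interval -0.05 to 0.67, adjusted p = 0.212, edgeR). KO replicate 3 lay within the WT range and the other KO crypts above it. The IEC organoids held 15.5 and 14.5 CPM in WT and 19.2 and 4.39 CPM in KO, and the CAG organoids 13.97 and 12.6 CPM in WT and 12.1 and 18.7 CPM in KO. In both cultures the KO pair enclosed the WT pair, and the log2 fold changes of -0.35 and 0.23 had 95% intervals of -2.10 to 1.41 and -0.24 to 0.71. Without KO replicate 1 they were -1.78 and 0.47, and without KO replicate 2 they were 0.35 and -0.14.

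Cdk4 and Cdk6, the kinases that the D-type cyclins activate, were lower in KO by point estimate in each experiment, and none of these differences passed the test. Of the 10 genes, 5 (Ccnd3, Ccne1, Cdk4, Cdk6 and Cdkn1b) matched a promoter in the RefSeq table, with 6 promoters in all, of which the 250 bases before the start were searched on both strands. The promoters of Cdk4 and Cdk6 are shown because they hold the E-box CACGTG, the letters that MYC with MAX binds. On GRCm38.p6, plus strand, with the E-box in capitals, they read:
Cdk4, chr10:127063285-127063534: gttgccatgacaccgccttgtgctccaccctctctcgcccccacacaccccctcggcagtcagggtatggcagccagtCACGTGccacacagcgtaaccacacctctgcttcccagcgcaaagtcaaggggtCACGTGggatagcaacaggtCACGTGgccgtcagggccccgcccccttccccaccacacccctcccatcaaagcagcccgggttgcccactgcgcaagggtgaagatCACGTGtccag
Cdk6, chr5:3343643-3343892: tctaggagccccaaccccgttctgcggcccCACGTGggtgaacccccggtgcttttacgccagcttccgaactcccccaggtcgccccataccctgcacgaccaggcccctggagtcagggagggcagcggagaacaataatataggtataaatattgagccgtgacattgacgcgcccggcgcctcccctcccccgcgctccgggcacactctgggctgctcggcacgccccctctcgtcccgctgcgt
The Cdk4 window holds 4 E-boxes, beginning 172, 118, 98 and 11 bases before the start, and the Cdk6 window holds 1, beginning 220 bases before its start. For Cdk6 this RefSeq start lies inside the gene span given below, not at its first base. At least 1 E-box is found in 6.02% and at least 4 in 0.0213% of the 32851 promoter windows of this length (7 windows). Neither these letters nor their number is a measure of binding.

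Cdk4 (ENSMUSG00000006728, chromosome 10, 127063534 to 127067920, plus strand) was at 227, 239, 235 and 179 CPM in WT crypts and 194, 155, 118 and 142 CPM in KO crypts. Only KO replicate 1 reached into the WT range, above WT replicate 4. The log2 fold change was -0.53 (SE 0.16), with p = 0.00869 before and 0.0658 after adjustment over all genes (edgeR), and the exact two-sided permutation test gave p = 0.0571. It passed without WT replicate 4 (-0.60, adjusted p = 0.0413, edgeR) and without KO replicate 1 (-0.67, adjusted p = 0.0250, edgeR), and by DESeq2 (-0.52, adjusted p = 0.0192). Among the libraries low in mitochondrial ribosomal RNA the difference was -0.57 log2 CPM, and between those of the middle class -0.33.

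The IEC organoids had Cdk4 at 315 and 291 CPM in WT and 260.0 and 168 CPM in KO. These groups did not overlap, and the log2 fold change of -0.50 did not pass (95% interval -1.16 to 0.15, adjusted p = 0.856, edgeR). The CAG organoids had it at 300.3 and 294 CPM in WT and 236 and 278 CPM in KO, again without overlap, with a log2 fold change of -0.21 (95% interval -0.43 to 0.01, adjusted p = 0.125, edgeR). It was -0.12 without KO replicate 1 and -0.34 without KO replicate 2. Each of these fits leaves 1 KO library that is assumed to vary like the WT libraries.

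Cdk6 (ENSMUSG00000040274, chromosome 5, 3341485 to 3531008, plus strand) was at 49.7 and 62.1 CPM in WT and 39.9 and 13.3 CPM in KO IEC organoids. The groups did not overlap, but the KO libraries lay far from each other, and the log2 fold change of -1.07 had a 95% interval of -2.43 to 0.29 (adjusted p = 0.856, edgeR). The CAG organoids held 166 and 173 CPM in WT and 153 and 148 CPM in KO, with no overlap and a log2 fold change of -0.17 (95% interval -0.35 to 0.00, adjusted p = 0.125, edgeR). In the crypts Cdk6 was at 63.5, 71.7, 71.5 and 60.4 CPM in WT and 88.1, 56.3, 52.9 and 46.1 CPM in KO. Here KO replicate 1 was above and the other 3 KO libraries below the WT range, with a log2 fold change of -0.13 (95% interval -0.55 to 0.28). It was -0.37 without KO replicate 1 (adjusted p = 0.0501, edgeR) and -0.015 without KO replicate 4.

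The inhibitors of the Cip/Kip family moved in opposite directions in the CAG organoids: Cdkn1b, which encodes p27, fell, and Cdkn1c, which encodes p57, rose. The promoter of Cdkn1b is shown since the gene had the lowest adjusted p of the 10, on GRCm38.p6, plus strand, with the CCAAT box in capitals:
Cdkn1b, chr6:134920151-134920400: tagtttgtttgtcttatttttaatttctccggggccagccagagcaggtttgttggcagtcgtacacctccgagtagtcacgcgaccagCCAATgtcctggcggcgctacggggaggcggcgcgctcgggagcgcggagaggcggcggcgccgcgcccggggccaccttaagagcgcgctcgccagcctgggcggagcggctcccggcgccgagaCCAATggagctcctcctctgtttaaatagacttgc
It holds 2 CCAAT boxes and no E-box. Of the 32851 windows 33.8% hold at least 1 CCAAT box, and the share with 2 was not counted. GC boxes (GGGCGG) and E2F sites (TTTNNCGC) were searched for too. The Cdkn1b and Cdk4 windows hold 1 GC box each and the Cdk6 window holds 1 E2F site, where 32.7% and 4.28% of windows hold at least 1.

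Cdkn1b (ENSMUSG00000003031, chromosome 6, 134920401 to 134925513, plus strand) was at 143 and 129 CPM in WT and 77.7 and 78.9 CPM in KO CAG organoids. The 2 KO libraries nearly coincided, well below both WT libraries. The log2 fold change was -0.80 (SE 0.09, 95% interval -0.99 to -0.60, adjusted p = 0.000134, edgeR), a fall of 42.4% that ranked 305 of 13598 genes by p. It passed in all 11 alternative settings, and without each library in turn it was -0.88 to -0.73. Cdkn1b in the IEC organoids was at 83.7 and 89.4 CPM in WT and 86.1 and 79.7 CPM in KO. The groups overlapped, and the log2 fold change of -0.06 had a 95% interval of -0.45 to 0.33. The crypts held 91.7, 98.8, 89.6 and 86.2 CPM in WT and 94.1, 82.9, 90.4 and 84.2 CPM in KO, the narrowest spread of the 10 genes in CPM relative to the mean. Their ranges overlapped over most of their length, and the log2 fold change was -0.06 (95% interval -0.25 to 0.13).

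Cdkn1c (ENSMUSG00000037664, chromosome 7, 143458339 to 143461050, minus strand), an imprinted gene, had the lowest level per length of the 10 in every group except the KO IEC organoids, where Cdk6 was lower. Its level in the CAG organoids was 5.06 and 5.57 CPM in WT and 7.92 and 9.04 CPM in KO. The groups did not overlap, with a log2 fold change of 0.68 (SE 0.23, adjusted p = 0.0447, edgeR). It kept its sign in 11 of 11 alternative settings but passed in 5, and it was lost without WT replicate 1 (0.60, adjusted p = 0.216, edgeR), without WT replicate 2 (0.74, adjusted p = 0.111, edgeR), without KO replicate 2 (0.57, adjusted p = 0.158, edgeR) and by DESeq2 (adjusted p = 0.213). It was also lost in the fit of all 16 libraries (adjusted p = 0.359, edgeR) and with library size alone as the scaling (0.65, adjusted p = 0.0520, edgeR). The IEC organoids held 5.47 and 6.64 CPM in WT and 5.42 and 7.09 CPM in KO, overlapping. In the crypts the levels were 2.78, 3.68, 2.56 and 2.65 CPM in WT and 2.33, 2.75, 6.36 and 4.41 CPM in KO. KO replicates 3 and 4 were above all WT crypts, and the log2 fold change of 0.44 did not pass (95% interval -0.29 to 1.17, adjusted p = 0.374, edgeR), and was 0.14 without KO replicate 3.

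**Figure D3:**
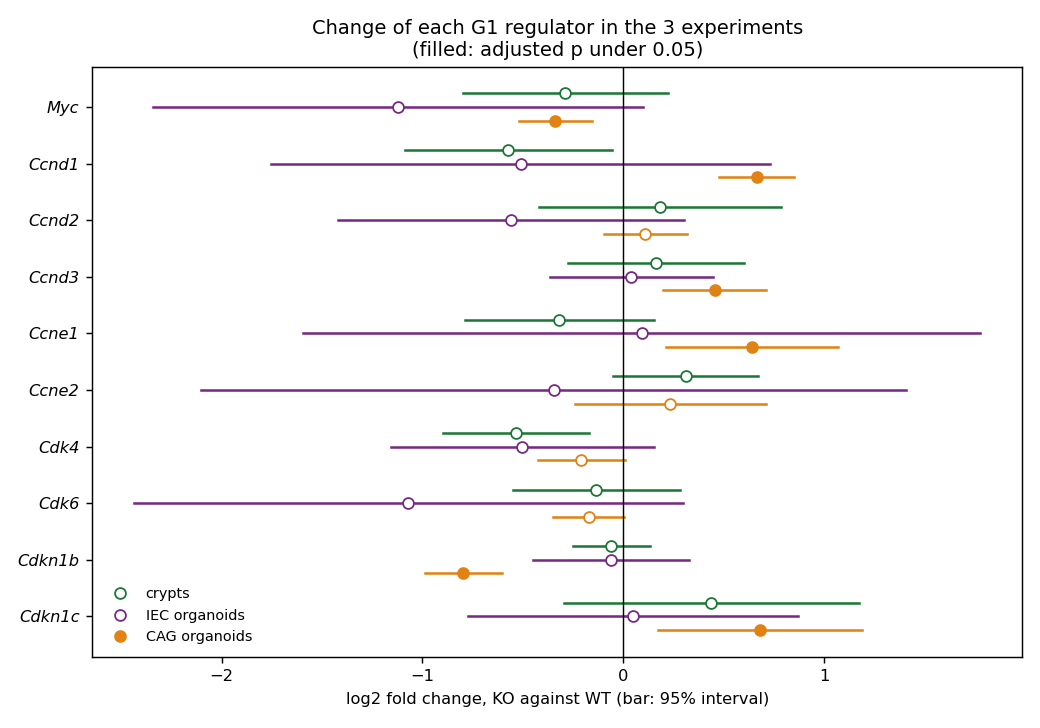
Log2 fold change of KO against WT with its 95% interval (edgeR) for the 10 genes in the crypts (4 against 4 libraries), the IEC organoids and the CAG organoids (2 against 2 each), filled where the adjusted p is under 0.05. Filled points occur only in the CAG organoids, 4 to the right of 0 and 2 to the left, and the intervals of the IEC organoids are the widest for 9 of the 10 genes.

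Whether the effect of the deletion differed between experiments was tested itself, as a difference of the log2 fold changes in a fit of all 16 libraries. Of the 10 genes, Cdkn1b differed: its change in the crypts minus that in the CAG organoids was 0.75 (SE 0.13, adjusted p = 0.0242, edgeR), where 0.372% of 15585 genes passed. Its change in the IEC organoids minus that in the CAG organoids was also 0.75 (SE 0.15, adjusted p = 0.0446, edgeR), where 0.385% passed. Between crypts and IEC organoids the difference for Cdkn1b was -0.01 (95% interval -0.28 to 0.27). In this last pair 0 of 10 genes passed with edgeR or DESeq2, 0 of 10 were under 0.05 before adjustment, and 0.00642% of all genes passed.

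Both differences of Cdkn1b depended on single libraries. In fits that left out each of the 16 libraries in turn, the difference between crypts and CAG organoids stayed at 0.67 to 0.83, but its call was lost in 6 of 16, at adjusted p of 0.0533 to 0.217 (edgeR). These were the fits without crypt WT replicate 1 (0.0533), crypt WT replicate 3 (0.0628), CAG WT replicates 1 (0.217) and 2 (0.0790), and CAG KO replicates 1 (0.202) and 2 (0.128). The difference between IEC and CAG organoids stayed at 0.68 to 0.83, and its call was kept only without crypt KO replicate 4 (0.0456) or IEC organoid KO replicate 1 (0.0269). In the other 14 fits the adjusted p was 0.0551 to 0.315 (edgeR).

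Ccnd1, whose point estimates were negative in the crypts and IEC organoids and positive in the CAG organoids, had a difference of -1.23 (95% interval -2.23 to -0.23, adjusted p = 0.247, edgeR) between crypts and CAG organoids and of -1.17 (-2.32 to -0.01, adjusted p = 0.453, edgeR) between IEC and CAG organoids. Neither passed, although Ccnd1 itself passed in the CAG organoids only. The other 8 genes did not pass in any of the 3 pairs, with adjusted p of at least 0.482 (edgeR).

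The IEC organoids were also fitted without each KO library, with the lone KO library assumed to vary like the WT libraries. Without KO replicate 1, that is with KO replicate 2 alone, the log2 fold changes of Myc (-1.98), Ccnd1 (-1.43), Ccnd2 (-0.99), Ccne1 (-1.24), Ccne2 (-1.78), Cdk4 (-0.86) and Cdk6 (-2.07) were all negative. Ccnd3, Cdkn1b and Cdkn1c were then at -0.04, -0.12 and 0.23. Without KO replicate 2, Ccnd1, Ccne1 and Ccne2 were at 0.04, 0.77 and 0.35. Also without KO replicate 2, Myc (-0.59), Cdk6 (-0.48), Ccnd2 (-0.22) and Cdk4 (-0.22) stayed lower in KO by point estimate. With 2 KO libraries, the effect of the genotype and what sets each library apart cannot be told apart.

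Among other CDK partners and inhibitors (16 genes, 14 tested), 6 passed in the CAG organoids. This count and those of the lists below stand beside 31.5% of all genes that passed in the CAG organoids (18.1% higher and 13.4% lower) and 6.96% in the crypts (4.3% higher and 2.66% lower), and nothing is read from them as particular to a list. The inhibitor genes Cdkn1a (p21), which rose by 1.57 on the log2 scale from 113 and 126 to 386 and 321 CPM , and Cdkn2b (p15, 1.37, from 29.0 and 31.5 to 91.6 and 66.0 CPM) were the 2 that rose. Cdkn2c (p18, -0.61), Cdk2, the partner of cyclins E and A (-0.53), and Ccna2, cyclin A (-0.41), had the largest falls of 4. Thus Cdkn1a rose and Cdkn1b fell in the same libraries. The list's median was -0.17, against 0.00 over all genes. In the crypts 1 of 14 passed, Cks2, a CDK-binding subunit, which fell by 0.61 from 70.2, 73.6, 74.4 and 65.8 to 60.9, 46.1, 37.5 and 42.1 CPM, and the median was -0.36 against -0.01. None of 14 passed in the IEC organoids (median -0.30 against -0.01), and that median was 0.076 without KO replicate 2.

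Of the RB and E2F families (17 genes, all tested), 4 fell in the CAG organoids and none rose, where 31.5% of all genes passed and 13.4% fell. Tfdp2, a dimer partner of E2F, fell by 0.67, E2f8, a repressive E2F, by 0.66, and E2f2, an activating E2F, by 0.36 on the log2 scale (median of the list -0.20 against 0.00). In the crypts 1 of 17 passed, Rb1 itself, which rose by 0.57 from 42.5, 45.3, 44.1 and 59.7 to 60.0, 65.7, 86.6 and 73.2 CPM (adjusted p = 0.0494, edgeR), with a median of -0.13 against -0.01. The IEC organoids had none (median -0.12). The effect on Tfdp2 in the IEC organoids minus that in the CAG organoids was 0.93 (SE 0.17, adjusted p = 0.0341, edgeR).

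The MYC network, the partners and antagonists of MYC (13 genes, all tested), had 8 that passed in the CAG organoids. Mxd1, a repressor that competes for MAX, rose by 1.24 from 35.4 and 39.3 to 99.3 and 77.8 CPM, Mlx by 0.70 and Max by 0.37 on the log2 scale, while Mxd3 (-0.82), Mxi1 (-0.74) and Mlxip (-0.46) had the largest falls of the 5 that passed in that direction. In the crypts Mxd3 fell by 0.92 and Mxi1 rose by 0.85, from 39.6, 35.4, 27.7 and 47.0 to 55.1, 54.4, 84.8 and 76.1 CPM. Mxi1 thus passed in both experiments in opposite directions, and the difference of 1.61 (SE 0.41) between them did not pass in the fit of all libraries (adjusted p = 0.0979, edgeR). The medians were 0.35 in the crypts, 0.23 in the IEC organoids and -0.26 in the CAG organoids, and none of 13 passed in the IEC organoids.

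Targets of the G1 machinery were measured too. Of 12 MYC target genes none passed in the crypts or the IEC organoids, where 11 of 12 were lower by point estimate in each (medians -0.35 and -0.44). The IEC organoid value rested on KO replicate 2. There the list's median log2 CPM, centred per gene, was 0.42 and 0.24 in WT and 0.30 and -0.94 in KO replicates 1 and 2. Among the crypts KO replicate 1 (0.19) lay within the WT range (0.03 to 0.38), and the other KO libraries lay below it. In the CAG organoids 4 passed: Odc1, which makes polyamines (0.38), and Cad, which starts pyrimidine synthesis (0.40), rose, and the nucleolar gene Npm1 (-0.43) and Ldha (-0.29), lactate dehydrogenase, fell (median -0.03). Npm1 and Ldha have processed pseudogenes, and how reads shared with them were counted is not given. Of 17 E2F target genes all 17 were lower by point estimate in the crypts (median -0.33) and in the IEC organoids (-0.72), but 1 and 0 passed. In the crypts it was Tk1, thymidine kinase, which fell by 0.59 from 85.4, 94.5, 96.5 and 92.1 to 68.1, 59.2, 46.8 and 70.1 CPM. The centred median of the E2F targets in crypt KO replicate 1 (0.30) lay within the WT range (0.05 to 0.34). In KO replicates 2, 3 and 4 it was -0.13, -0.56 and -0.35. In the CAG organoids 5 fell and none rose, led by Tk1 (-0.63), Pola1, a DNA polymerase subunit (-0.62), and the checkpoint kinase gene Chek1 (-0.59), with a median of -0.20. The centred median there was 0.12 in both WT libraries, -0.27 in KO replicate 1 and 0.08 in KO replicate 2.

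All 10 genes of S, G2 and M phase were lower by point estimate in each of the 3 experiments. In the crypts 3 of them fell, Cdc20 (-0.61), Ccnb2 (-0.60) and Plk1 (-0.53), which act in mitosis. In the CAG organoids 5 fell, led by Mki67, the proliferation antigen Ki67 (-0.58, from 503 and 457 to 287 and 354 CPM), Bub1 (-0.56) and Aurkb (-0.53), and none of 10 passed in the IEC organoids. The medians were -0.56, -0.44 and -0.41 in crypts, IEC organoids and CAG organoids. This rested on 1 library in the IEC organoids, since the list's median log2 CPM, centred per gene, was 0.37 and 0.21 in WT, 0.45 in KO replicate 1 and -1.06 in KO replicate 2. Of 12 Wnt target genes (11 tested), Lgr5, the stem cell receptor, fell by 0.74 and Ascl2, a stem cell transcription factor, by 0.67 in the crypts. Lgr5 fell by 1.25 in the CAG organoids, from 494 and 524 to 184 and 245 CPM, while Nkd1 (1.41) and Cd44 (0.81) rose. None passed in the IEC organoids, where all 11 were lower by point estimate (median -1.25). In the crypts 10 of 11 were lower (median -0.34), and in the CAG organoids 6 of 11 were higher (median 0.16). The effect on Ascl2 in the IEC organoids minus that in the CAG organoids was -3.88 (SE 0.37, adjusted p = 0.00105, edgeR), and that in the crypts minus that in the IEC organoids was 2.91 (SE 0.32, adjusted p = 0.00622, edgeR). Tcf7, a transcription factor of the Wnt pathway, was named after its value was seen and differed by -2.60 between IEC and CAG organoids (SE 0.49, adjusted p = 0.0375, edgeR). With Tfdp2 these were the 4 differences among the genes of the 7 lists that passed. Over all genes 0.00642% passed between crypts and IEC organoids, 0.372% between crypts and CAG organoids and 0.385% between IEC and CAG organoids. How these 4 differences depend on single libraries was not tested.

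The medians of the lists were also taken library by library. In the IEC organoids the median of the E2F target genes, centred per gene on the experiment, was 0.42 and 0.55 in WT, 0.53 in KO replicate 1 and -1.47 in KO replicate 2 on the log2 CPM scale. That of the 10 genes was 0.25 and 0.25 in WT, 0.09 in KO replicate 1 and -0.87 in KO replicate 2. KO replicate 1 was thus close to the WT libraries for both and KO replicate 2 far below them. In the crypts the 10 genes were at 0.03, 0.17, 0.22 and -0.08 in WT and 0.37, -0.13, -0.38 and -0.31 in KO, with KO replicate 1 above every WT library. The CAG organoids spread little, at 0.00 and -0.14 in WT and 0.01 and 0.08 in KO.

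**Figure D4:**
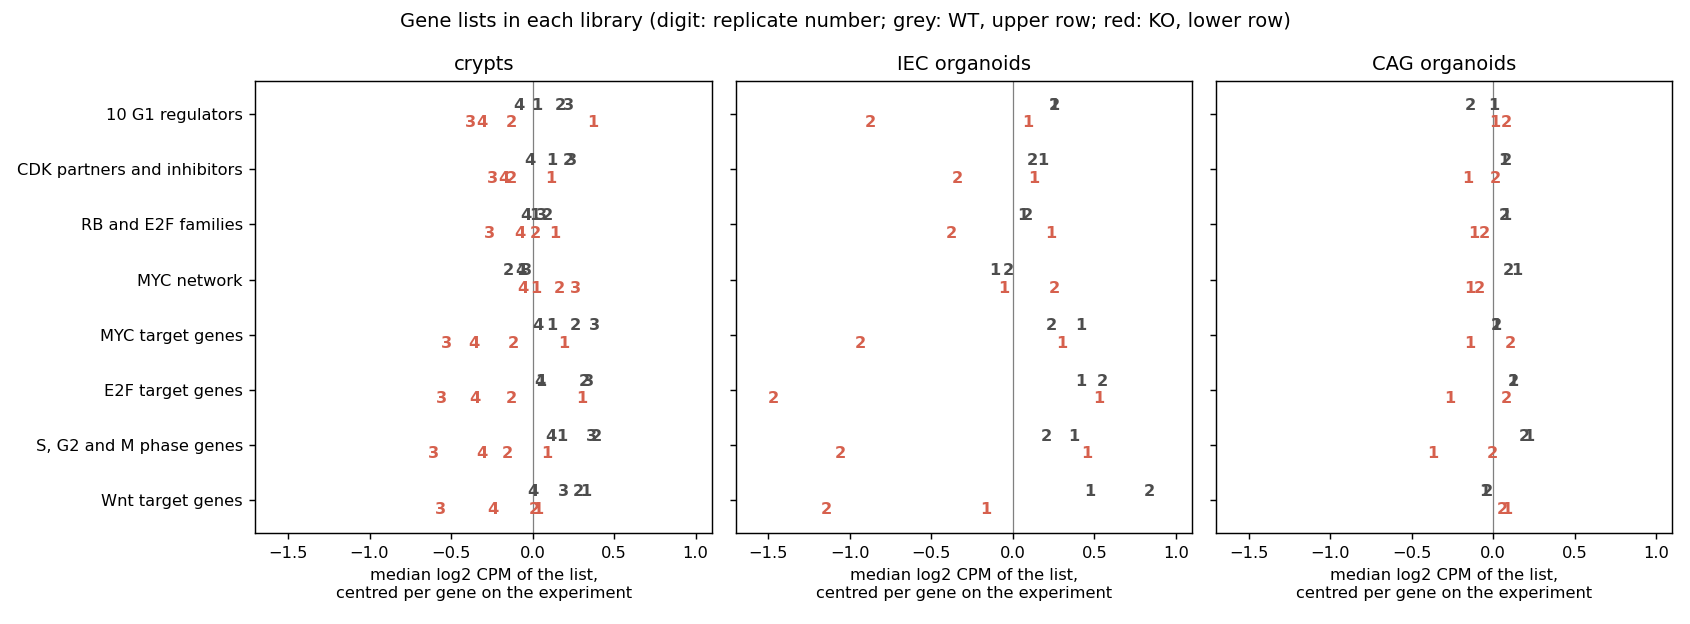
Median log2 CPM of the 10 G1 regulators and of 7 gene lists in each library, each gene centred on its experiment (digits give the replicate number, WT grey in the upper line and KO red in the lower line). KO replicate 2 of the IEC organoids lies far to the left in every list but the MYC network, whereas KO replicate 1 lies closer to the WT libraries than KO replicate 2 does in all of them.

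Markers of cell types also varied between libraries and, mainly in the CAG organoids, passed the test between genotypes. None of the markers passed in the IEC organoids with edgeR. In bulk samples fewer cells of a type and less RNA per cell cannot be told apart. Of the 8 epithelial markers 4 rose and 1 fell in the CAG organoids, and 1 rose in the crypts. Krt8, a keratin and the most abundant of them, was at 2070 and 1936 CPM in WT and 3467 and 3022 CPM in KO CAG organoids, without overlap, at 3358 to 4151 CPM in WT and 3265 to 4019 CPM in KO crypts, and at 2771 and 1967 CPM in WT and 3587 and 3205 CPM in KO IEC organoids. The epithelial marker Epcam was at 1502 to 1623 CPM in the crypts, 1098 to 1329 in the IEC organoids and 1000.5 to 1119 in the CAG organoids. The 8 enterocyte markers, genes of the absorptive cells that have left the cycle, summed to 2300.0 to 10039 CPM in WT and 9041 to 18292 CPM in KO crypts, 8 of 8 with a positive log2 fold change (median 1.52) and none past the test. Their most abundant gene there was Apoa1 (602 to 1994 CPM in WT and 2133 to 4241 CPM in KO), and Alpi, the intestinal alkaline phosphatase, was at 72.8 to 367 and 136 to 1711 CPM. That sum in the CAG organoids was 4525 and 4884 CPM in WT and 13367 and 10481 CPM in KO, and 7 of 8 markers rose. There the 6 Paneth, 6 goblet and 5 tested enteroendocrine markers all rose as well, with Lyz1 at 1028 and 853 CPM in WT and 1898 and 1755 CPM in KO. The enterocyte sum of the IEC organoids was 5659 and 9744 CPM in WT, 4119 CPM in KO replicate 1 and 12444 CPM in KO replicate 2, with Sis, sucrase-isomaltase, the most abundant (1041 to 4519 CPM), and the stem cell gene Olfm4 was at 1761 and 2820 CPM in WT, 1019 CPM in KO replicate 1 and 13.7 CPM in KO replicate 2.

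The 5 stem cell markers summed to 1908 to 2917 CPM in WT and 1230.0 to 1989 CPM in KO crypts, and 2 of 5 fell there, while 3 of 5 fell in the CAG organoids. The 6 Paneth markers summed to 11750 to 21140 CPM in WT crypts and to 13687, 8685, 2377 and 21798 CPM in KO replicates 1 to 4. The defensin gene Defa24 was at 3586 to 8159 CPM in WT and 718 to 9099 CPM in KO crypts, and the lysozyme gene Lyz1 at 3873 to 7786 and 825 to 3562 CPM, Defa24 having the higher mean over the 8 libraries and Lyz1 the higher level in 5 of them. The 6 goblet markers summed to 5367 to 7568 CPM in WT and 7123 to 10947 CPM in KO crypts, the 6 enteroendocrine markers to 300 to 441 and 268 to 358 CPM, and none of them passed there. Among goblet markers Fcgbp was the most abundant (2870 to 4969 CPM in WT and 3059 to 8306 CPM in KO crypts), and the mucin gene Muc2 was at 6.75 to 43.6 and 5.33 to 32.3 CPM. Of the enteroendocrine markers, Chgb was at 187 to 257 CPM in WT and 151 to 219 CPM in KO crypts and Chga at 54.8 to 106 and 65.1 to 84.0 CPM. The 4 tuft markers summed to 30.5 to 49.0 CPM in 7 of the 8 crypt libraries and to 191 CPM in KO replicate 4, with Trpm5 at 75.4 and Dclk1 at 53.9 CPM in that library and at most 20.7 and 13.9 CPM in the others. In the IEC organoids the goblet sum was 1758 and 2073 CPM in WT, 1850 CPM in KO replicate 1 and 6916 CPM in KO replicate 2.

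The 8 immune markers summed to 27.3 to 127 CPM in WT crypts and 59.7, 81.2, 393 and 213 CPM in KO crypts, led by Gzma (195 CPM in KO replicate 3), while Ptprc was at 5.94 to 17.5 CPM in WT and 7.51 to 30.8 CPM in KO. In the organoids they summed to 0.518 to 3.08 CPM, with Cd8a, Gzma and Gzmb at 0 counts in all 8 libraries and Itgae the most abundant (0.332 to 1.92 CPM). The 8 mesenchyme and endothelium markers summed to 5.95 to 8.80 CPM in WT and 1.48 to 5.52 CPM in KO crypts and to 0.518 to 2.22 CPM in the organoids. Of them Col1a2 and Dcn were at 0 counts in the IEC organoids and Acta2 and Cdh5 in the CAG organoids, and Col3a1 was the most abundant in the crypts (0.424 to 2.96 CPM), with Col1a1 at 0.0919 to 1.20 CPM. In the organoids Pecam1 was the most abundant by the mean (0.203 to 1.11 CPM). The part of these shifts in the levels of the G1 genes was not tested.

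For each of the 6 genes that passed in the CAG organoids, the genes of most similar pattern were found by the root mean square difference of log2 CPM over the 16 libraries, each gene centred on the WT mean of its experiment, among 12478 genes tested in all 3. Cdkn1b was nearest to Nxt2 (0.081), Add3 (0.107) and Tmem260 (0.117), against a median of 0.408 over all genes. Myc was nearest to Slc12a2 (0.147), a marker of crypt base cells, Mcc (0.187) and Lfng (0.190), against a median of 0.655. Ccnd1 was nearest to Noc4l (0.166), Aaas (0.206) and Gusb (0.211), and Ccnd3 to Ywhag (0.109), Dpp9 (0.117) and Hspa4 (0.128). Ccne1 was nearest to Apip (0.186), Ccdc86 (0.188) and Casc4 (0.204), and Cdkn1c to Btg2 (0.211), AC153368.1 (0.223) and Pgrmc1 (0.225). Among the 10 genes themselves, Myc and Cdk6 were the nearest pair (0.230) and Myc and Cdkn1c the farthest (0.889), and Cdkn1b was nearest to Cdk4 (0.400).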

How the data were processed

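RNA from crypts and organoids was sequenced as 16 libraries, in 3 experiments of WT and KO. Per the submitters' processing notes, reads were aligned with HISAT2 2.0.5 and counted with featureCounts 1.5.0-p3, and the authors deposited whole-number read counts per gene, not normalized, with 1 table per experiment. The genome build and whether counting used the strand are not given in the sources used here, so reads from overlapping antisense genes cannot be told apart. The positions of 10 of 10 genes equal those of GENCODE M21 (GRCm38).

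Counts were tested in each experiment with edgeR 4.0.16 in R 4.3.3 (filterByExpr, TMM, quasi-likelihood F test, Benjamini-Hochberg over all genes tested, called at an adjusted p under 0.05), and differences between experiments in 1 fit of all 16 libraries. CPM were TMM-scaled, and SE was the log2 fold change over the square root of F. Log2 CPM used a prior count of 2. Alternatives were other scalings and filters, DESeq2 1.42.0, a replicate block, a class of mitochondrial ribosomal RNA (bounds 100 and 2000 CPM) and leaving out each library. Leaving out libraries in the joint fit was added after seeing the data. The fits were tested on simulated counts.

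The 10 genes and all lists were chosen with earlier results of these data known. Named were all 10 genes, the genes of each list that passed (at most 3 per direction and experiment, by fold change), the most abundant and the defining marker of each cell type, and the 3 nearest genes by pattern. No 2 libraries held identical counts. Promoter sequences are from RefSeq (GRCm38.p6). Depth limits precision at low counts, and 3 counts were taken as the floor.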

Additional observations from a re-analysis of the deposited data

Results flagged for a closer look

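Myc in WT crypt replicate 4 was at 52.3 CPM, apart from the other WT crypts, the nearest of which was at 70.3 CPM. The gap was 0.836 of the group's range. Of 22 groups of 4 libraries checked this way 1 stood out, and chance gives about 1 in 20. Without that library the log2 fold change of Myc in the crypts was -0.37 (adjusted p = 0.291, edgeR), against -0.29 with it, and leaving out single crypt libraries gave -0.49 to -0.12.

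The effect of the deletion on Cdkn1b differed between experiments, by 0.749 on the log2 scale between crypts and CAG organoids and by 0.755 between IEC and CAG organoids, the 2 of 30 differences among the 10 genes that passed. Both calls depend on single libraries, as given above. Between crypts and IEC organoids, which share pVillin-Cre, the difference was -0.01 (95% interval -0.28 to 0.27). The CAG organoids differ from both other experiments in the Cre line and in how the deletion was started. They differ from the crypts also in being cultured and in having 2 libraries per genotype, where the crypts had 4. The medium may differ between the organoid experiments too. The part of these in the differences was not tested, and the design does not tell them apart.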

How the results depend on the processing

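Cul4b passed in every setting that tested it except without either WT library of the IEC organoids. The filter of at least 10 counts in every library removed it from the crypts, where KO replicate 3 held 8. Of the 10 G1 genes, Cdkn1b in the CAG organoids passed in 11 of 11 alternatives, Ccnd1 in 10, Myc in 9, Ccnd3 in 8, Ccne1 in 7 and Cdkn1c in 5, all with the sign kept. The number of the 10 that passed in the CAG organoids was 3 with DESeq2, 1 in the fit of all 16 libraries and 0 with a fold of at least 2, and 2 to 7 when single libraries were left out (2 without WT replicate 1). In the crypts it was 1, Cdk4, without a filter on low counts, with DESeq2 and in the fit of all libraries, and 0 to 3 with single libraries left out. In the IEC organoids it was 2 without a filter, Myc and Cdk6, and 0 to 7 with single libraries left out. The causes of these shifts were not tested.

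Over all genes the crypts gave 1479 calls without a filter, 2490 with DESeq2, 240 with a fold of at least 2, 1659 in the fit of all libraries, 2 with the mitochondrial ribosomal RNA class in the model and 1 without its high class. Leaving out single libraries gave 2 to 2468. With library size alone as the scaling, 51.0% of the crypt calls were higher in KO, against 61.8%, and the median of all genes moved to -0.09. The IEC organoids gave 223 without a filter, 27 with DESeq2, 18 in the fit of all libraries and 0 to 2322 with single libraries left out. The CAG organoids gave 2761 with DESeq2, 1169 with a fold of at least 2, 477 in the fit of all libraries and 2789 to 5177 with single libraries left out.

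Same-numbered WT and KO libraries did not deviate together throughout, with correlations of -0.04, 0.19, -0.40 and 0.43 in the crypts, 0.34 in the IEC and 0.07 in the CAG organoids, so the numbers were not taken as pairs. With a replicate block, 4 genes passed in the crypts, 1 in the IEC and 4932 in the CAG organoids, with 0, 0 and 6 of the 10. Ccne1 in the IEC organoids was then -0.20.

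Other signs turned only for values that had not passed. With library size alone, Ccnd3 and Cdkn1c in the IEC organoids were -0.0035 and -0.0100. With at least 10 counts in every library the difference of Cdkn1b between crypts and IEC organoids was 0.0031. Leaving out single libraries gave -0.010 to 0.38 for Ccnd2 in the crypts and -0.14 to 0.47 for Ccne2 in the CAG organoids. In the IEC organoids it gave -1.43 to 0.044 for Ccnd1, -0.037 to 0.11 for Ccnd3, -1.24 to 0.77 for Ccne1, -1.78 to 0.35 for Ccne2 and -0.16 to 0.23 for Cdkn1c.

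Between crypts and IEC organoids 0 to 2 of the 10 differed with single libraries left out. The differences were -0.63 to 0.82 for Ccnd1, -0.022 to 0.28 for Ccnd3, -1.10 to 0.89 for Ccne1, -0.056 to 2.05 for Ccne2, -0.32 to 0.29 for Cdk4 and -0.067 to 0.037 for Cdkn1b. Between crypts and CAG organoids 0 to 1 differed, with -0.14 to 0.21 for Myc, -0.12 to 0.27 for Ccnd2, -0.17 to 0.45 for Ccne2 and -0.19 to 0.16 for Cdk6. Between IEC and CAG organoids 0 to 5 differed (5 without IEC organoid KO replicate 1), with -1.82 to 0.16 for Ccne1, -1.94 to 0.15 for Ccne2 and -0.60 to 0.013 for Cdk4.

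The median of the MYC network in the crypts was 0.19 with the class as a factor and 0.18 without its high class. That of the Wnt targets in the CAG organoids was 0.13 with library size alone, 0.19 without a filter and 0.056 to 0.19 with single libraries left out. The same gave -0.24 to -0.15 for the RB and E2F families and -0.31 to -0.23 for the MYC network there, and -0.51 to 0.076 for the CDK partners in the IEC organoids.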
